A study of Homo sapiens with 16 samples.

Results

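KANSL2 was repressed in JJN3, an established line of human multiple myeloma, the cancer of antibody-secreting plasma cells. The repression used CRISPR interference, in which a guide RNA brings a catalytically dead Cas9 fused to a repressor domain to the start of a gene. The JJN3 messenger RNA data hold 6 of the 16 libraries of the series: 3 labelled KANSL2 knockdown and 3 labelled with a nontargeting guide, all of untreated cells. The study also holds 6 RNA libraries of INA6, a myeloma line dependent on interleukin 6, with the same labels and 3 libraries each. Another 4 libraries, of open chromatin from JJN3, were not used here. The labels describe no clone, guide sequence, time after transduction or separate culture for the RNA libraries, so the p-values speak of library-to-library spread alone, and that spread may be technical. Both groups are called control and knockdown below. Every gene whose mean over the 6 JJN3 libraries was at least 3 was described, which kept 12282 of the 28277 symbols listed.

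KANSL2 belongs to the NSL complex, a chromatin assembly built around the histone H4 acetyltransferase KAT8. The complex is known to sit at the promoters of widely expressed genes and to help recruit the machinery that transcribes them. The other subunits include KANSL3, the methyl-lysine reader PHF20, the adaptor WDR5, the glycosyltransferase OGT and its partner HCFC1. Levels are regularised log (rlog) values on the log2 scale, so a step of 1 is a doubling and a difference of 0.5 is a level 141% of the starting one. The rlog method pulls each gene towards its own mean, most of all where reads are few, and scaling makes each value relative to the other genes of its library. Such values cannot show whether a cell's whole RNA content moved. In bulk samples fewer cells of a type and less RNA per cell cannot be told apart. Differences are knockdown minus control with the standard error, n = 3 per group, from limma with Benjamini-Hochberg adjustment over all 12282 genes. "Called" means an adjusted p below 0.05.

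The targeted gene fell. KANSL2 read 7.25, 7.24 and 7.19 in control replicates 1, 2 and 3 and 6.00, 5.98 and 6.06 in the knockdown libraries, with no overlap. That is a difference of −1.21 ± 0.056 (adjusted p = 1.48e-16), a level 43.1% of the control. It was the second largest fall among the leading genes. The 250 bases before its RefSeq start, the kind of region at which CRISPR interference acts, are shown here for context with the CpG dinucleotides in capitals (GRCh38.p14, chr12:48682239-48682488, minus strand). The window holds 20 of them.
KANSL2: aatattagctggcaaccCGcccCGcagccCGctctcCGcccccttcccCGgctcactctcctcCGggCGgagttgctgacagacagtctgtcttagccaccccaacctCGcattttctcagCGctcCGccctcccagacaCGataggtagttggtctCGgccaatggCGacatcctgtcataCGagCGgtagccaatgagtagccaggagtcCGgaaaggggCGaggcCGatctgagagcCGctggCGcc
The nearest tested gene is CCNT1, a cyclin of the elongation factor P-TEFb. The gap between its RefSeq span and that of KANSL2 is 6220 bases, which is not a distance between their starts. CCNT1 was higher by 0.23 ± 0.046. Within 500000 bases to either side 18 other genes were tested, 7 were called higher and 6 lower, and their median difference was 0.01. ZNF641 was the lowest of them, at −0.49, and DDN, a neuronal cytoskeletal protein gene, the highest, at 0.45.

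Libraries of a group resembled each other more than those of the other group. The root mean square distance over all tested genes was 0.083 to 0.106 between libraries of a group and 0.206 to 0.220 between groups. Principal component 1 held 78.9% of the variance and separated control from knockdown, while component 2, with 7.33%, spread the knockdown libraries from 6.01 to −5.64. Control replicate 1 was the highest control for several genes that respond fast to stimuli, and those values are given with the genes below. Of 10 plasma cell markers, 10 were tested, 6 were higher and 1 lower, and their summed level on the linear scale was 102384 to 104999 in the controls and 114469 to 118051 in the knockdown. Fewer markers of other cells passed the level filter: 5 of 8 for B cells (3 higher, 2 lower), 1 of 8 for T and NK cells (CD3E, lower), 1 of 7 for myeloid cells and 0 of 6 for stroma. The defining markers CD3D and CD3G of T cells, LYZ, S100A9 and MPO of myeloid cells, and DCN, LUM and PDGFRB of stroma were listed at 0 in all 6 libraries, although a value of 0 in this table does not show absence.

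As deposited, about as many genes were called higher as lower, mostly by little. Of the 12282 genes 51.0% were called, 3135 higher (25.5%) and 3129 lower (25.5%), and in 56.1% the groups did not overlap. The even split depends on the scaling: median centring gave 3768 higher and 2571 lower. The median size of a called difference was 0.21, against a median standard error of 0.050. A difference of at least 0.5 was called in 102 genes that rose and 149 that fell, together 2.04%, and one of at least 1 in 2 that rose and 5 that fell. Against a stricter null, a difference of at most 0.2, limma's treat method called 1108 genes, 516 higher and 592 lower. Each count below is to be read against the background of 25.5% in each direction. That share differs with the level of a gene, so the shares of the level bands, given below, apply to each list too.

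**Figure D1:**
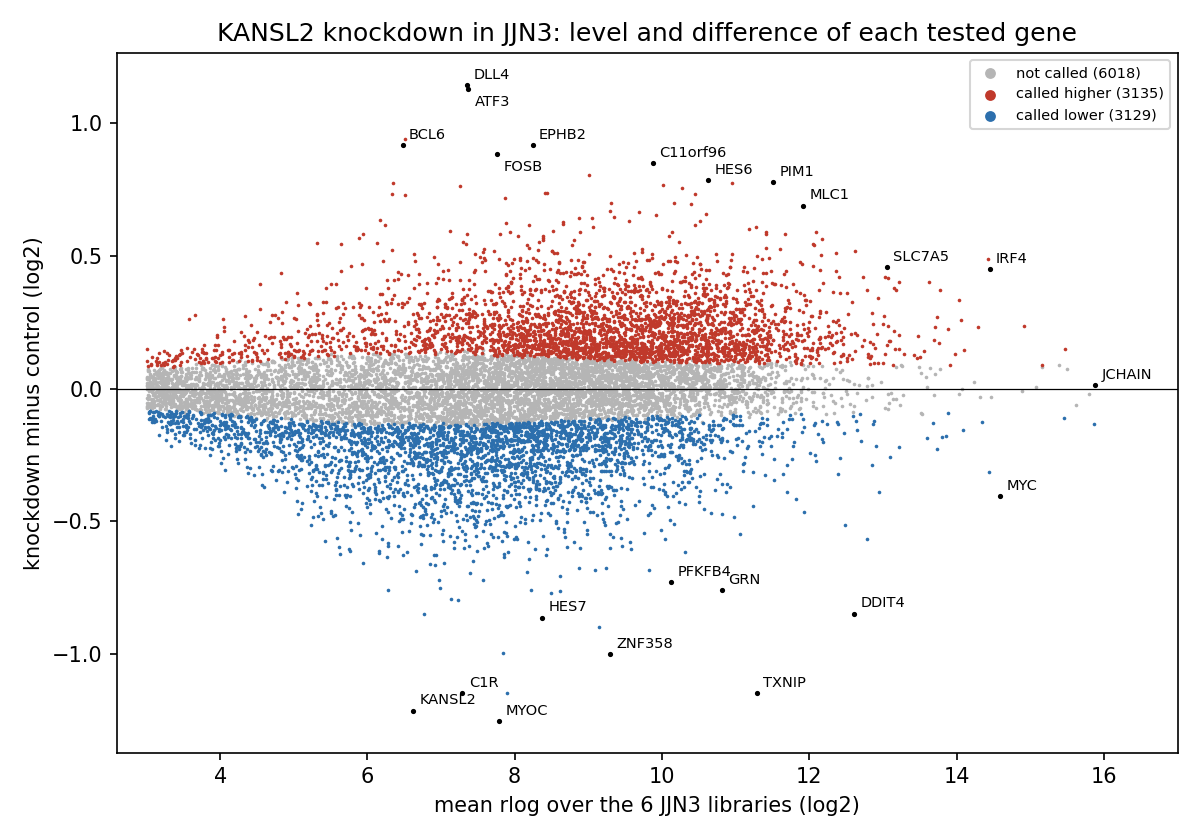
Each point is 1 of 12282 genes, with the mean rlog level over 6 libraries on the x axis and knockdown minus control (log2) on the y axis. Red points were called higher and blue points lower. The leading rises (DLL4, ATF3) and falls (MYOC, KANSL2, TXNIP, C1R) stand near 1.1 to 1.3 in size. Called points right of 9 lie more often above 0 than below it, a lean that quantile normalisation largely takes out by its design.

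In the deposited values the direction went with the level of a gene. Among the 846 genes with a mean of 11 or more, 52.8% were called higher and 12.3% lower. Among the 3255 genes from 9 to 11 the shares were 40.2% and 17.8%. The 4066 genes from 7 to 9 were nearer to even, with 22.6% and 29.6%. Below that it turned: of 2356 genes from 5 to 7, 12.8% were higher and 35.4% lower, and of 1759 genes from 3 to 5, 9.15% and 23.0%. Quantile normalisation, which gives every library the same distribution of values, closed the gap between directions, while the shares in both still grew with level. It left 29.1% higher and 29.3% lower in the top band and 22.7% and 22.6% in the band from 5 to 7. That scaling largely takes out such a lean whatever its source, so this outcome does not test the lean. INA6 showed the same slope in its own table, with 47.4% higher and 18.6% lower at 11 or more and 15.6% and 30.3% from 5 to 7.

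Promoters rich in CpG dinucleotides, which are typical of widely expressed genes, went with rises. A RefSeq window from 250 bases before to 50 after the start was found for 9222 of 11122 tested protein-coding genes (82.9%). They were split into quintiles by their number of CpG dinucleotides. In the lowest quintile, with 0 to 17, 21.4% of genes were higher and 31.6% lower. In the highest quintile, with 36 to 69, 33.3% were higher and 18.0% lower, and the quintiles between lay in order. Among genes of like level the difference was seen from 5 upwards. In the band of 11 or more, the highest quintile had 60.9% higher and 6.70% lower and the lowest quintile 38.4% and 22.3%. In the band from 5 to 7 the shares were 16.7% and 25.9% against 14.0% and 40.9%. From 3 to 5 both shares were smaller in the highest quintile, 8.63% and 21.6% against 10.6% and 25.5%. After quantile normalisation 29.1% were higher and 18.6% lower in the highest quintile, and 22.7% and 28.3% in the lowest. By the genomic span of the gene the differences were smaller: the share higher fell from 27.9% in the shortest quintile to 23.2% in the longest, and the share lower was 24.7% and 23.2%.

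**Figure D2:**
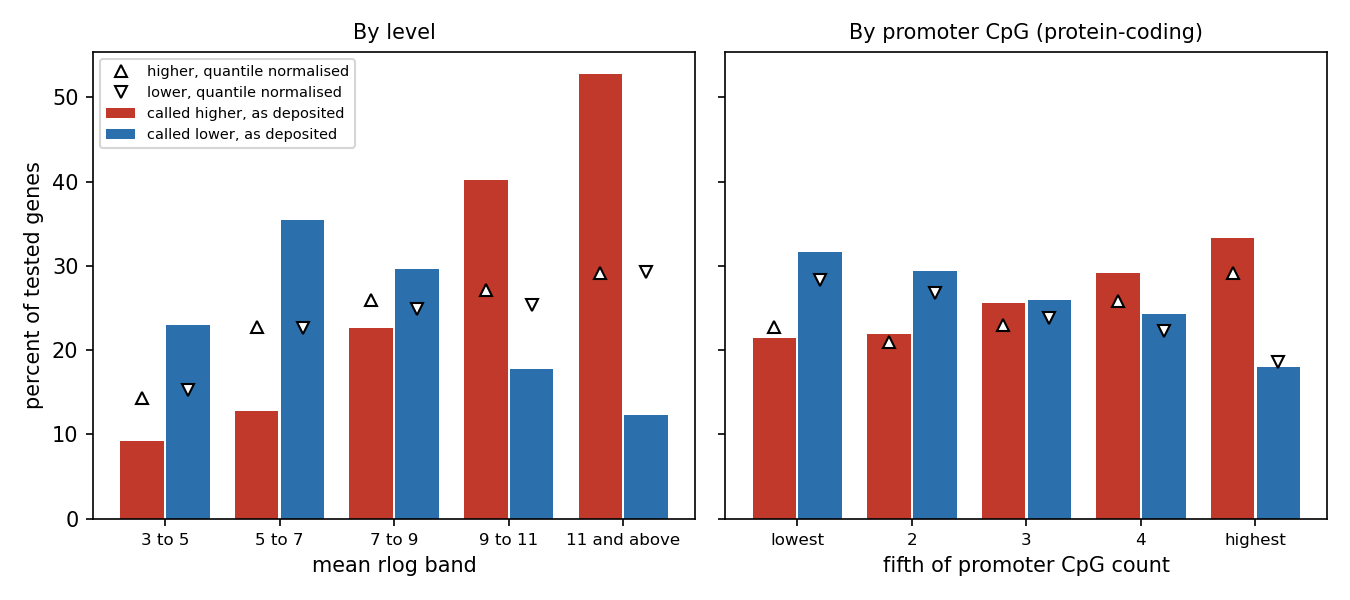
Percent of tested genes called higher (red bars) and lower (blue bars) by band of mean rlog level (left) and by quintile of CpG count in the promoter window of protein-coding genes (right). Open triangles give the same shares after quantile normalisation. Under that scaling the shares higher and lower are near each other within each level band, while both grow with level, and the opening between higher and lower in the lowest and highest CpG quintiles remains.

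The share is a tendency and not a rule for single genes, as the leading genes show. For the 25 largest rises a window was found for 20, with 3 to 49 CpG dinucleotides and a median of 21; for the 25 largest falls it was found for 21, with 2 to 39 and a median of 19. All genes called higher had a median of 29 and all called lower 24.5. The windows with the fewest and the most are printed for each direction, other than KANSL2, as the 250 bases before the start with CpG dinucleotides in capitals (GRCh38.p14). ATF5 at chr19:49928656-49928905 and EPHB2 at chr1:22710588-22710837 rose, and C2orf88 at chr2:190137527-190137776 and TMEM219 at chr16:29961829-29962078 fell, all on the plus strand. They carry 3, 42, 2 and 27 in these 250 bases.
ATF5: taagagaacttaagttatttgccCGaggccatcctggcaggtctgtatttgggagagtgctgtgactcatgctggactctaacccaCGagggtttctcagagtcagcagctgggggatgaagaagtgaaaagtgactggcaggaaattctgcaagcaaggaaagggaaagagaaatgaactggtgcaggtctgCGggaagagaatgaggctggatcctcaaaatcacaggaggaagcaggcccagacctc
EPHB2: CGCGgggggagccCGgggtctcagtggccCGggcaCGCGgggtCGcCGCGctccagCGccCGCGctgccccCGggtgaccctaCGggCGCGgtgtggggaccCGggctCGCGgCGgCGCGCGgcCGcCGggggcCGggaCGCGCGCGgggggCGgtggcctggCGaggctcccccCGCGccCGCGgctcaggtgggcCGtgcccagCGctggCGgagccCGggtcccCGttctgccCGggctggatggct
C2orf88: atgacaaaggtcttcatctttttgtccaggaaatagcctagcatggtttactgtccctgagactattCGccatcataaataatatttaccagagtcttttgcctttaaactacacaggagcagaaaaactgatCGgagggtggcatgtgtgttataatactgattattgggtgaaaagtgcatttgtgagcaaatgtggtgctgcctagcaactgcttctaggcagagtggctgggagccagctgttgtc
TMEM219: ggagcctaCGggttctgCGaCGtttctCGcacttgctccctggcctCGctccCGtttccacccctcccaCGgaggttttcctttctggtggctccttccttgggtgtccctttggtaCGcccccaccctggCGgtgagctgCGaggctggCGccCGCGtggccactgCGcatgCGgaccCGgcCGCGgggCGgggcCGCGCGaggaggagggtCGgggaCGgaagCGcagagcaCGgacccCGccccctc
Short motifs were also counted in these windows. The E-box, GC box, E2F motif, CRE core and ETS motif each hold a CpG themselves, so their shares are not separate from the CpG content. The E-box CACGTG, on either strand, was in 12.1% of the windows of higher genes, 8.47% of those of lower genes and 10.3% of all. The TATA box TATAAA was in 6.57%, 3.94% and 5.26%, and the GC box GGGCGGG in 57.8%, 52.5% and 54.7%. The E2F motif TTTNGCG (7.68%, 7.72% and 8.24%), the AP-1 motif TGANTCA (4.17%, 4.36% and 4.13%) and the CCAAT box (37.5%, 36.5% and 37.0%) were close to even. The CRE core TGACG was in 37.5%, 33.2% and 35.0%, and the ETS motif CCGGAAG in 19.2%, 21.3% and 20.5%.

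The 25 largest rises, among genes with a mean of at least 5 and no overlap between groups, are given by what each gene is known to do. Their adjusted p was at most 3.69e-09, and all 25 were called under each of 10 alternatives (both rescalings, a replicate block, no trend, and without each of 6 libraries). They were chosen as called genes with large differences, which favours such an outcome, so it is no separate evidence. DLL4, a ligand of Notch receptors, read 6.88, 6.75 and 6.72 in the controls and 7.78, 8.00 and 8.01 in the knockdown libraries. It rose by 1.15 ± 0.063, the largest rise, to 221% of the control. EPHB2, a receptor tyrosine kinase for ephrins, read 7.67, 7.76 and 7.92 and then 8.71, 8.62 and 8.78, a rise of 0.92 ± 0.059. Receptors for other ligands followed. The somatostatin receptor SSTR2 went from 6.00, 5.88 and 6.01 to 6.73, 6.77 and 6.72, and the prostaglandin E2 receptor PTGER4 from 10.01, 9.84 and 9.83 to 10.60, 10.68 and 10.67. Both rose by 0.76 to 0.78 and stood clear of the controls in all 3 libraries.

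Transcription factors came next. ATF3, a stress-induced factor, read 7.06, 6.66 and 6.69 in the controls, highest in replicate 1, and 7.92, 8.00 and 7.89 in the knockdown libraries, a rise of 1.13 ± 0.072. BCL6, a repressor known from germinal centre B cells, read 6.10, 5.98 and 5.98 and 7.00, 6.80 and 7.01, a rise of 0.92 ± 0.061. FOSB, an AP-1 subunit, spread more, with 7.64, 7.27 and 7.05 in the controls and 8.23, 8.23 and 8.15 after knockdown. It rose by 0.88 ± 0.082. Each knockdown library lay above control replicate 1, which the choice of these genes required. NFKBIZ, a nuclear cofactor of NF-kappaB, was likewise highest in control replicate 1, at 8.36, 7.92 and 7.85, and read 8.75, 8.83 and 8.76 in the knockdown libraries. NR4A1, an orphan nuclear receptor, read 7.65, 7.52 and 7.37 and 8.35, 8.01 and 8.33, lowest in knockdown replicate 2. HES6, a relative of the Notch target factors, read 10.34, 10.23 and 10.13 and 10.83, 11.01 and 11.22. ATF5, a factor of the amino acid response, rose by 0.70 ± 0.049.

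Feedback and survival genes were among them too. PIM1, a kinase that supports survival downstream of cytokines, read 11.18, 11.09 and 11.09 in the controls and 11.89, 11.89 and 11.93 after knockdown, a rise of 0.78 ± 0.040 with little spread in either group. SOCS1, an inhibitor of cytokine signalling, read 6.90, 6.96 and 6.78 and 7.67, 7.57 and 7.69. DUSP10, a phosphatase of stress kinases, rose by 0.70 ± 0.047. Among genes of replication, CDC6, which loads the replicative helicase, read 8.62, 8.57 and 8.64 and 9.30, 9.51 and 9.44, and FAM111B rose by 0.70. Matrix genes included COL5A1, a fibrillar collagen chain, at 10.57, 10.55 and 10.57 and 11.26, 11.39 and 11.36, and the metalloprotease ADAMTS15, up by 0.77. The other rises in the list were C11orf96 (0.85), FRMD6 (0.74), RIPOR2 (0.73), the cancer-testis antigen MAGEC1 (0.73), MLC1 (0.69) and the uncharacterised LOC101927402 (0.94) and LOC284454 (0.74). The next genes down, LOC101448202 and IRS2, both stood at 0.67, close to the last gene in the list.

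The 25 largest falls were chosen in the same way. Their adjusted p was at most 6.46e-11 and all 25 were called under each of the same 10 alternatives. Here too the choice of the genes favours such an outcome. MYOC, a secreted protein known from the eye, read 8.48, 8.48 and 8.27 in the controls and 7.14, 7.07 and 7.28 after knockdown, the largest fall at −1.25 ± 0.062. TXNIP, which binds thioredoxin and restrains glucose uptake, read 11.87, 11.81 and 11.91 and 10.81, 10.72 and 10.61. It fell to 45.1% of the control. SLCO2B1, an organic anion transporter, read 8.53, 8.38 and 8.50 and 7.32, 7.42 and 7.22, and C1R, a protease that starts the complement cascade, 7.87, 7.91 and 7.81 and 6.67, 6.68 and 6.80. Each fell by 1.15 with groups far apart.

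Stress, death and metabolic genes formed part of the falls. DDIT4, an inhibitor of mTORC1 induced by hypoxia and stress, read 13.08, 13.20 and 12.80 in the controls and 12.13, 12.15 and 12.26 in the knockdown libraries. BBC3, which encodes the death-promoting BCL2 relative PUMA, read 8.92, 8.98 and 8.73 and 7.99, 8.08 and 8.24, a fall to 58.6% of the control. PFKFB4, which sets the level of a glycolysis activator, read 10.52, 10.48 and 10.46 and 9.79, 9.76 and 9.72. MAP3K10, a kinase upstream of JNK, went from 8.38, 8.40 and 8.25 to 7.37, 7.32 and 7.35, a fall of 1.00 on the log2 scale. GRN, the lysosomal and secreted progranulin, read 11.25, 11.18 and 11.14 and 10.27, 10.49 and 10.54, lowest in knockdown replicate 1. SUOX, the sulfite oxidase, fell by 0.70.

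Factors and surface genes filled the rest of the list. ZNF358, a zinc finger gene, read 9.83, 9.77 and 9.77 and 8.76, 8.77 and 8.84. HES7, a repressor of the Notch-driven HES family, read 8.81, 8.81 and 8.79 and 7.85, 8.00 and 7.97, a fall of 0.86 while its relative HES6 rose. SOX18, an endothelial factor, read 7.53, 7.55 and 7.50 and 6.78, 6.69 and 6.74. MEX3A, an RNA-binding ubiquitin ligase, and GATAD1, a chromatin protein, each fell by 0.76. The collagen chain COL9A2 fell by 0.72 although COL5A1 rose, and the adhesion protein CNTN1 fell by 0.75. C2orf88, TMEM254, ZSWIM4, TMEM8B, LOC374443, TMEM219 and AGTRAP completed the list, at −0.90 to −0.69, and TDRKH (−0.69) and LANCL1 (−0.68) stood just outside it.

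**Figure D3:**
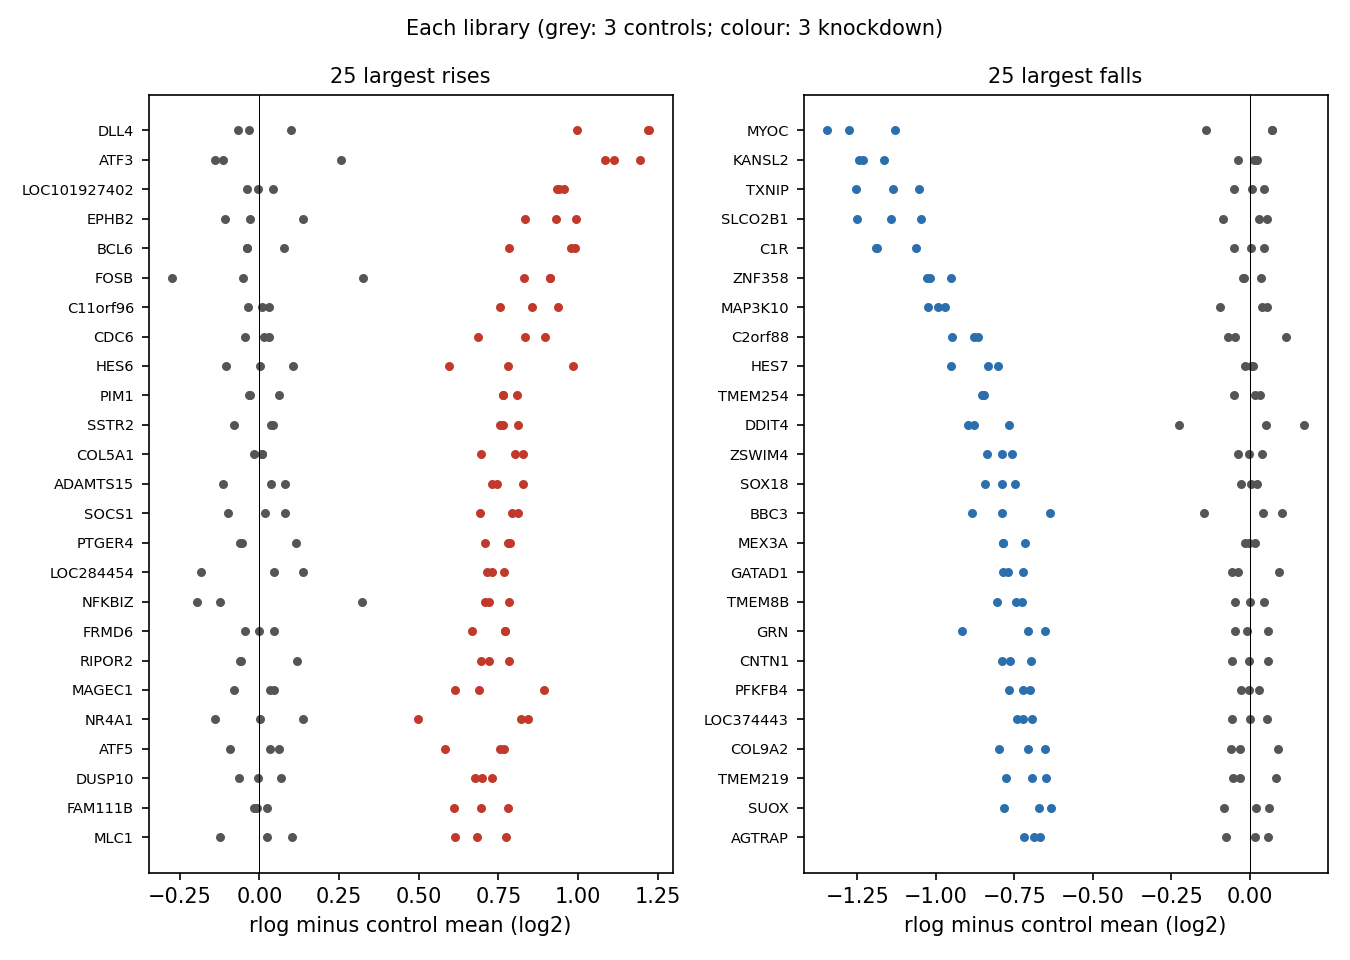
Each point is 1 library, as its rlog level minus the mean of the 3 controls, for the 25 largest rises (left, red knockdown libraries) and the 25 largest falls (right, blue). Grey points are the controls. No gene's groups overlap, which the choice of these genes required. FOSB and NFKBIZ show the widest controls among the rises and DDIT4 among the falls.

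Single pathways held members that moved in opposite directions. Of 4 Notch ligands tested, DLL4, JAG1 and JAG2 were higher and DLL3 lower. JAG1 read 8.12, 8.24 and 8.12 and 8.65, 8.66 and 8.59, and DLL3 6.96, 7.13 and 7.12 and 6.59, 6.68 and 6.71, differences of 0.47 ± 0.051 and −0.41 ± 0.060. The receptor NOTCH1 rose by 0.23. Of 9 genes listed as Notch targets or their relatives 2 were higher and 3 lower. The relative HES6 and the feedback inhibitor NRARP (0.30) were higher, and HES7, DTX3 (−0.45) and HEY1 (−0.23) lower. Of 11 ephrins and Eph receptors tested 2 were higher and 6 lower. EPHB4, a receptor of the same class as EPHB2, fell by 0.34 ± 0.053.

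Of 18 genes of the PIM kinases and STAT feedback list 5 were higher and 6 lower. Beside PIM1 and SOCS1, SOCS3 rose by 0.50, from 10.51, 10.16 and 10.01 to 10.81, 10.61 and 10.75. The transcription factor STAT5A fell from 6.11, 6.01 and 5.99 to 5.50, 5.47 and 5.56, and STAT5B and CISH fell by 0.36 and 0.27. PIM2 fell by 0.16, while PIM3, at 0.01 ± 0.047, was not called. Among 18 brakes and stress sensors of the growth kinase mTORC1, 6 were higher and 5 lower, or 5 and 7 under quantile normalisation. SESN3 rose from 7.80, 7.86 and 7.99 to 8.59, 8.53 and 8.37 and SESN2 by 0.44, against the fall of DDIT4.

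NF-kappaB inhibitors also split. NFKBIA, which holds NF-kappaB in the cytoplasm, rose from 8.87, 8.71 and 8.69 to 9.31, 9.43 and 9.37. TNFAIP3, the ubiquitin-editing enzyme A20 in the same feedback, fell from 12.72, 12.84 and 12.67 to 12.25, 12.25 and 12.19. Of 16 genes of the pathway 7 were higher and 3 lower. In the BCL2 family, 4 of 14 were higher and 5 lower: the death-promoting PMAIP1 rose by 0.40 and the survival gene MCL1 by 0.20, while BBC3 fell. Of 29 cyclins, CDK inhibitors and partners 17 were higher and 8 lower. E2F1, a driver of S phase, read 9.64, 9.61 and 9.60 and 10.07, 10.04 and 10.26, whereas RB1, which restrains E2F factors, read 10.51, 10.42 and 10.41 and 10.11, 10.07 and 10.04, and its relative RBL2 fell by 0.47. MYC, an amplifier of growth genes, fell by 0.40 ± 0.037, from 14.75, 14.83 and 14.80 to 14.40, 14.39 and 14.38.

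Groups that rose nearly as 1 block made ribosomes, proteasomes and splicing regulators. Of 43 ribosome biogenesis genes 37 were higher and 0 lower, with a median difference of 0.30 against 0.00 over all genes. NOP56, a core protein of small nucleolar ribonucleoproteins, read 11.26, 11.23 and 11.29 and 11.76, 11.68 and 11.67. Of 43 proteasome subunits 32 were higher and 0 lower (median 0.21), led by PSMD2, which rose by 0.47. Of 11 SRSF splicing regulators 9 were higher and 0 lower (median 0.22). Their median level was 11.1, in the band of 11 or more where 52.8% of all genes were higher. SRSF6 read 11.89, 11.69 and 11.75 and 12.30, 12.36 and 12.30. EIF4G1, the scaffold of cap-dependent translation, rose from 11.78, 11.75 and 11.84 to 12.36, 12.40 and 12.39, and of 51 initiation factor genes 27 were higher and 10 lower. Under median centring and quantile normalisation ribosome biogenesis had 39 and 35 genes higher, the proteasome 34 and 33 and SRSF genes 9 and 8, with 0 lower each time. Initiation factors had 21 higher and 12 lower under the latter.

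Amino acid transporters rose as well, 12 of 19, with 1 lower (median 0.19). SLC7A5 and SLC3A2, the chains of the large neutral amino acid exchanger, read 12.78, 12.80 and 12.87 and 13.25, 13.27 and 13.32 for the first and 11.15, 11.16 and 11.12 and 11.58, 11.72 and 11.73 for the second. SLC1A5, a glutamine transporter, rose by 0.34 ± 0.039. Small nucleolar RNA host genes were higher in 13 of 22 and lower in 3, with SNHG1 up by 0.42. Of 88 small nucleolar RNAs listed 42 were higher and 0 lower. These lie within introns of host genes, and a library of poly(A) RNA cannot tell their reads from those of the host, so they are no separate evidence.

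Zinc finger genes, many of them close paralogs that can share reads, were called lower more often than background. Of 412 tested ZNF symbols 51 were higher (12.4%) and 159 lower (38.6%), with a median of −0.07. ZNF768 fell by 0.68, from 10.18, 10.19 and 10.14 to 9.48, 9.46 and 9.52, while ZNF587B was among those that rose, by 0.57. In the band of mean level from 7 to 9, 39.0% of ZNF genes were lower, against 29.6% of all genes there. Chromosome 19 holds clusters of these genes. There 36.3% of 204 ZNF genes were lower, on the other chromosomes 40.9% of 208, and of the 692 other genes of chromosome 19 30.8%. Under quantile normalisation 64 ZNF genes were higher and 130 lower.

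Ubiquitin ligase families leaned the same way. Of 35 TRIM genes 5 were higher and 17 lower, with TRIM68 at −0.64 and TRIM62 at −0.58, and of 54 F-box genes 7 were higher and 24 lower. Of 43 genes of the MAP kinase cascade 6 were higher and 18 lower, among them MAPK3, which encodes the kinase ERK1 and fell by 0.47, and MAP3K13 (−0.43). Genes of transport within cilia, the antenna-like organelles of the cell surface, were lower in 16 of 27 and higher in 0 (median −0.17). Their median level was 5.29, in the band from 5 to 7 where 35.4% of all genes were lower. BBS4, a BBSome subunit, read 7.40, 7.41 and 7.47 and 7.08, 6.94 and 6.97, and the kinesin motor KIF3B fell by 0.35. Of 31 glycolysis and hypoxia genes 17 were lower and 4 higher. ADM, a hypoxia-induced peptide hormone, read 10.65, 10.72 and 10.47 and 9.99, 10.00 and 10.00, and VEGFA, the angiogenic growth factor, fell by 0.44.

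The rest of the NSL complex moved little. Of 9 subunits listed, KANSL2 included, 8 were tested. Of these 3 were higher and 2, KANSL2 among them, lower (1 and 1 under quantile normalisation). Other than KANSL2, all were at or below 0.24 in size. WDR5 rose by 0.24 ± 0.044, OGT by 0.18 and HCFC1 by 0.18. KAT8 itself read 7.66, 7.73 and 7.59 and 7.45, 7.56 and 7.43, a fall of 0.18 ± 0.057 with adjusted p = 0.0101. After quantile normalisation KAT8 differed by −0.13 (adjusted p = 0.0647), and with control replicate 2 left out by −0.14 (adjusted p = 0.0695), so its call did not hold in either. OGT and HCFC1 stood at 0.08 each under quantile normalisation and were not called there. KANSL3, PHF20 and MCRS1, at −0.08, −0.04 and 0.04, were not called. Of 49 writers and erasers of histone acetylation outside and inside the complex 16 were higher and 12 lower, close to background. ING4, a subunit of the HBO1 acetyltransferase complex, fell from 6.98, 7.05 and 6.96 to 6.41, 6.44 and 6.50, while EP300 and BRPF1 rose by 0.27 and 0.30.

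Plasma cell genes mostly rose. Of 20 tested 12 were higher and 3 lower (median 0.17). Their median level was 10.5, in the band from 9 to 11 where 40.2% of all genes were higher. IRF4, the factor on which myeloma cells depend, read 14.26, 14.20 and 14.22 and 14.70, 14.68 and 14.65. POU2AF1, a transcriptional coactivator, rose by 0.40, and TNFRSF17, the gene of the therapy target BCMA, from 11.13, 11.10 and 11.15 to 11.68, 11.69 and 11.76. The surface proteins did not move together: CD38 rose by 0.45, SDC1, which encodes CD138, fell by 0.50, and FCRL5 fell by 0.49. XBP1 and the antibody joining chain JCHAIN, a pair with high rlog values, stood at 0.02 ± 0.038 and 0.01 ± 0.038 and were not called. Genes of B cells, the stage before, were higher in 4 of 8 tested and lower in 2. MS4A1, which encodes CD20, read 5.88, 5.79 and 5.88 and 6.43, 6.47 and 6.55, and CIITA, the activator of MHC class II genes, 11.04, 10.99 and 10.90 and 11.51, 11.65 and 11.60. CD79B, a chain of the B cell receptor, fell from 8.58, 8.59 and 8.58 to 7.95, 7.96 and 8.03. Of 17 TNF family receptors and ligands 10 were higher and 1 lower, with TNFSF9 at 0.55 and TNFRSF8 at 0.52.

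Position in the genome showed weak leanings. Chromosome 20 had 33.1% of its 350 genes higher and 24.0% lower, and chromosome 19 22.4% and 32.0% of 896. On chromosome 12, which carries KANSL2, 14 of 664 genes, itself among them, were called lower by at least 0.5 and 1 higher by that much. Chromosome 19 had 20 lower and 11 higher by that much of 896, and chromosome 11 had 13 and 9 of 680. Over all 12282 genes the counts were 149 lower and 102 higher. Whether chromosome 12 stands apart from the others was not tested. Pairs of genes that start back to back from a shared region were no more than slightly alike: of 162 such pairs with both genes called, 60.5% moved the same way, against 56.0% of 2341 other neighbouring pairs. Long noncoding RNAs were higher in 14.5% and lower in 25.1% of 633, a lean that turned to 19.7% and 17.9% under quantile normalisation.

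INA6 answered to the same target with a partly different set of genes. KANSL2 fell less there, by 0.39 against 1.21, with a line difference of −0.82 (adjusted p = 2.11e-11). Of 11137 genes tested in both lines 30.0% differed in their response, tested as JJN3 minus INA6 differences over their combined standard errors. In INA6 48.6% of 12511 tested genes were called, 24.7% higher and 24.0% lower. In both lines 1577 genes were called higher, 54.6% of the JJN3 list and 53.7% of the INA6 list, and 1372 were called lower, 48.1% and 52.4%. Opposite calls, with the line difference called too, were found for 435 genes (3.91%), 266 of them higher in JJN3. Of the 22 leading rises tested in INA6, 9 were called higher there, 5 lower and 8 not called, and all 22 differed between lines. Of the 21 leading falls tested there, 16 fell in INA6 too, 0 rose, and 18 differed in size. Both sets were chosen by the size of their JJN3 difference, so a line difference is in part built into that choice.

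Genes that rose in JJN3 and fell in INA6 included several fast-responding genes. FOS, an AP-1 subunit, read 9.46, 9.16 and 9.08 in the JJN3 controls, highest in replicate 1, and 10.15, 9.76 and 9.69 in the knockdown libraries. Its difference was 0.63 ± 0.079 in JJN3 and −1.49 in INA6, a line difference of 2.12. KLF2, a factor of lymphocyte quiescence, read 9.14, 8.93 and 8.99 and 9.68, 9.57 and 9.76, with differences of 0.65 and −1.35. For SOCS3 the pair was 0.50 and −2.26, and for EGR1, which was not called in JJN3, 0.07 and −1.90. PIM1 (0.78 and −0.46), NR4A1 (0.72 and −0.77), TNFRSF17 (0.58 and −0.56), SGK1 (0.56 and −0.40) and LGALS1 (0.51 and −0.41) followed. DLL4, ATF3, BCL6 and FOSB, high among the JJN3 rises, stood at 0.05, −0.02, 0.00 and 0.01 in INA6. JUN and JUNB did not follow FOS and FOSB in JJN3, at −0.07 (not called) and −0.17.

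In the other direction TNFAIP3 fell by 0.51 in JJN3 and stood at 0.42 in INA6. PARP14 (−0.39 and 0.41), CASKIN1 (−0.41 and 0.38), ZNF616 (−0.48 and 0.23) and PHF19, a Polycomb partner (−0.43 and 0.23), did likewise. CXXC1, which binds unmethylated CpG within a histone methyltransferase complex, fell from 10.73, 10.76 and 10.64 to 10.28, 10.29 and 10.41 in JJN3 and stood at 0.17 in INA6.

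**Figure D4:**
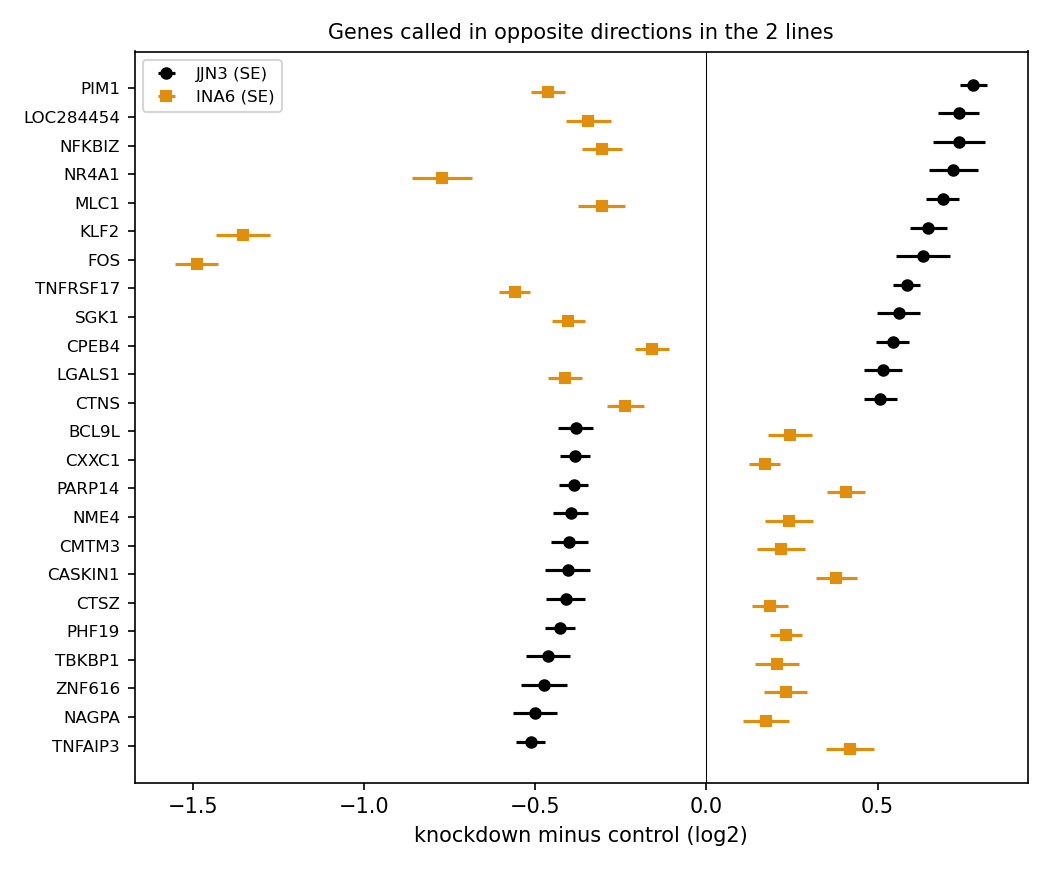
Knockdown minus control (log2) with its standard error for the 24 genes with the largest JJN3 differences among those called in opposite directions in JJN3 (black circles) and INA6 (orange squares). The opposite signs follow from how the genes were chosen. FOS and KLF2 are the farthest apart.

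Whole families differed between the lines as well. Of the ZNF genes tested in both, 348, INA6 had 108 higher and 58 lower, and among the genes with a called line difference JJN3 lay below INA6 in 108 and above in 15. Over all genes JJN3 lay below in 15.6% and above in 14.4%. Histone genes were higher in 16 of 37 and lower in 2 in JJN3, and in INA6 2 of 36 were higher and 15 lower; all 19 line differences had JJN3 above. H1-2, a linker histone, read 11.19, 11.25 and 11.20 and 11.50, 11.64 and 11.68 in JJN3 and differed by −0.49 in INA6. H2BC12 rose by 0.51 against −0.19. Many histone messages carry no poly(A) tail, so a poly(A) library samples them only in part, and near-identical copies may share reads.

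Respiratory chain genes were called higher in INA6 far more often than in JJN3. Of 36 complex I genes 5 were higher and 5 lower in JJN3, and 18 and 1 in INA6. Median centring gave 7 and 3, and quantile normalisation 8 and 2, in JJN3, against 22 and 1 in INA6 under both. Of 24 genes of complexes III and IV the counts were 6 and 5 in JJN3 and 16 and 0 in INA6, and of 18 ATP synthase genes 6 and 0, and 12 and 0. NDUFS1, a core subunit of complex I, rose by 0.32 in JJN3, and NDUFB4 fell by 0.28. Mitochondrial ribosomal proteins were higher in 28 of 73 and lower in 11 in JJN3, and higher in 44 and lower in 0 in INA6. JJN3 lay below INA6 in 18 of the 19 called line differences of this family, 11 of 13 of complex I, 9 of 9 of complexes III and IV and 8 of 8 of ATP synthase.

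Secretory and plasma cell genes went the other way. Of 52 genes of import and folding in the endoplasmic reticulum 29 were higher and 1 lower in JJN3. In INA6 12 were higher and 10 lower (4 and 17 under quantile normalisation), and all 22 called line differences had JJN3 above. The median JJN3 level of the 52 genes was 10.6, in the band from 9 to 11 where 40.2% of all genes were higher. HYOU1, a chaperone of that compartment, read 12.31, 12.32 and 12.34 and 12.64, 12.69 and 12.75 in JJN3, a rise of 0.36 against 0.11 in INA6. Under quantile normalisation the JJN3 counts were 21 and 6. Of 20 plasma cell genes 5 were higher and 12 lower in INA6, against 12 and 3 in JJN3, with JJN3 above in 11 of 13 called line differences. PRDM1, the master factor of plasma cells, stood at 0.28 in JJN3 and −0.72 in INA6.

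**Figure D5:**
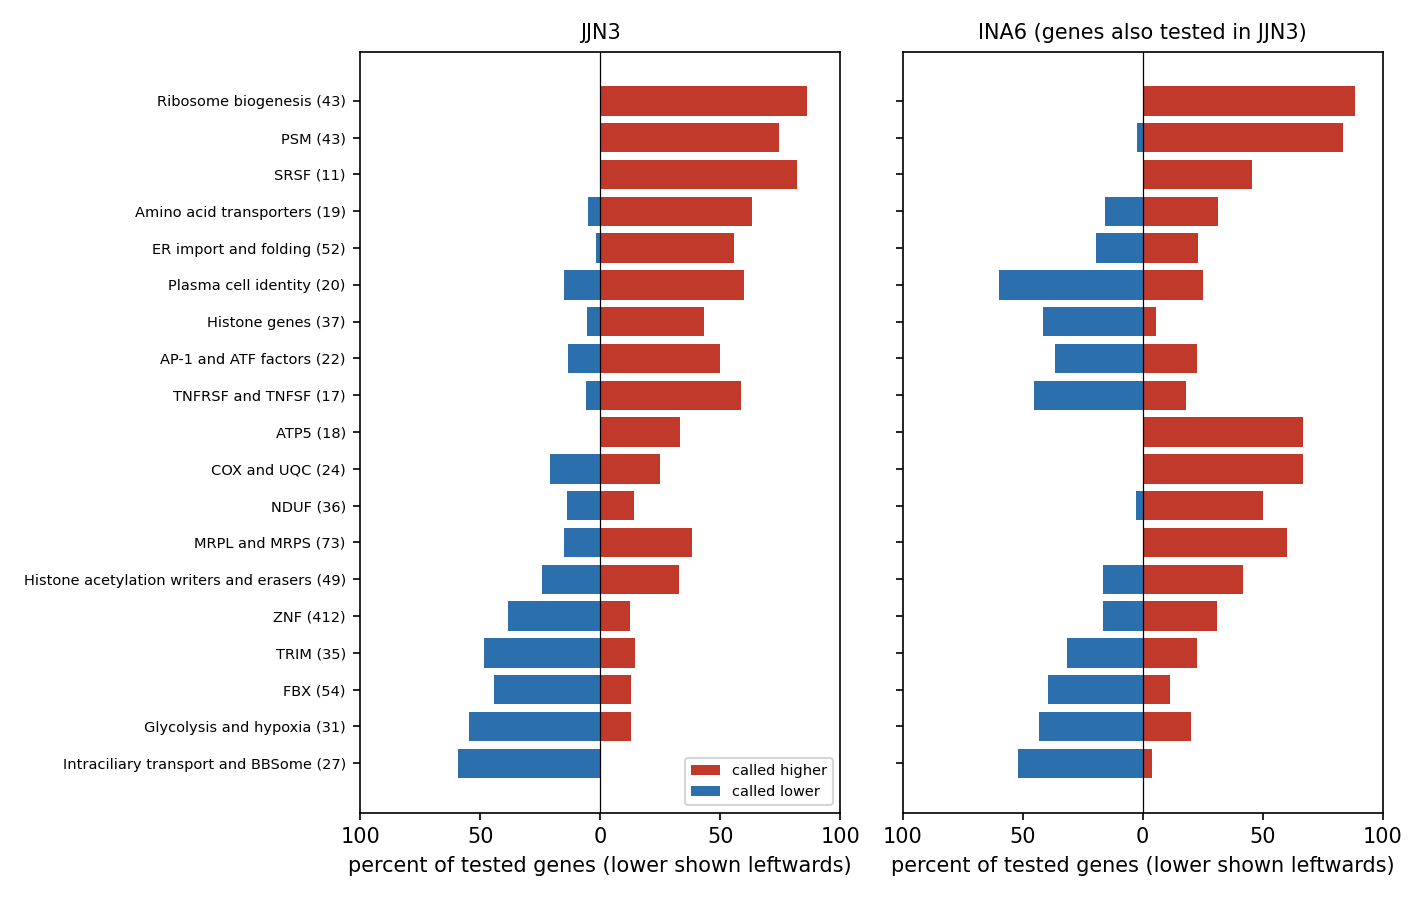
Share of tested genes called higher (red, rightwards) and lower (blue, leftwards) for 19 lists and symbol families in JJN3 (left) and INA6 (right), with the number tested in JJN3 in brackets. Ribosome biogenesis and proteasome genes rise in both panels. Histone, plasma cell and ZNF genes lean to opposite sides, and complex I (NDUF) has 5 genes higher and 5 lower in JJN3 (8 and 2 under quantile normalisation) and leans to the right in INA6.

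Some genes with high rlog values, which are not scaled for gene length, showed small differences. For 435 genes, 3.54% of those tested, the 95% interval of the difference lay within 0.1 of 0. ACTG1, a cytoskeletal actin, read 15.79, 15.80 and 15.83 and 15.75, 15.79 and 15.82, a difference of −0.02 ± 0.038. The elongation factor EEF2 stood at 0.01, the GTPase RHOA at 0.01 and the factor RUNX3 at −0.02. GAPDH, often used as a reference gene, read 15.91, 15.95 and 15.93 and 15.76, 15.79 and 15.85, a fall of 0.13 ± 0.038 that was called.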

How the data were processed

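Messenger RNA of 6 JJN3 libraries was measured, with 6 INA6 libraries for comparison; samples were grouped by their titles. Poly(A) RNA was captured and copied with random hexamers, per the labels' protocols; whether counting used strand is not stated, so overlapping and antisense genes are uncertain. The submitters' processing notes name DESeq2, HTSeq, Bowtie2 and Trim Galore, and the build hg38. The authors deposited rlog values on the log2 scale, 1 table per line, normalised separately, so levels were never set across lines. The tables hold no counts, so the depth is unknown. Of the symbols, 10073 stood at 0 throughout JJN3.

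Genes with a mean of at least 3 were tested with limma 3.58.1 in R 4.3.3 (lmFit, eBayes with a trend, no block, two-sided, Benjamini-Hochberg), after tests on simulated data. With 3 against 3 libraries an exact permutation test cannot go below 0.1, so none was used. The line difference used summed squared standard errors and degrees of freedom, over 11137 genes. Promoter sequences and gene positions come from RefSeq tables of GRCh38.p14, the same assembly as hg38; 12154 tested symbols matched, and the first listed start of a gene was used.

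Genes named are the 25 largest rises and falls (called, mean of at least 5, no overlap, no clone-based symbol), 12 per direction called oppositely in INA6, up to 4 per list or 3 per symbol family with the smallest p, the highest-level genes, and KANSL2 with its NSL partners. CCNT1, ZNF641, DDN, HEY1, SOCS3, STAT5B, CISH, PIM2, PIM3, CD38, SDC1, XBP1, PRDM1, JUN, JUNB, EGR1 and the genes just outside the leading lists were chosen after their values were seen. Of 329 genes of the rule 307 were called; not all are printed. The red cell and platelet markers are not reported here. The members and lists were chosen with earlier results of these data known. Alternatives were median centring, quantile normalisation, other filters, treat, no trend, a replicate block and leaving out each library.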

Additional observations from a re-analysis of the deposited data

Results flagged for a closer look

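Among the 435 genes called in opposite directions in JJN3 and INA6, with a difference between lines that passed its own test after adjustment over 11137 genes, 12 are given here: in each direction the 6 with the largest JJN3 difference, leaving out uncharacterised LOC symbols. Each line has its own controls. The values here are JJN3 minus INA6 differences on the log2 scale. FOS stood apart by 2.12, KLF2 by 2.00, NR4A1 by 1.49, PIM1 by 1.24, NFKBIZ by 1.04 and MLC1 by 1.00, all higher in JJN3. Control replicate 1 of JJN3 was the highest control for FOS, NR4A1, KLF2 and NFKBIZ, and their knockdown libraries were all above it. TNFAIP3 stood apart by −0.93, ZNF616 by −0.71, NAGPA by −0.67, TBKBP1 by −0.67, PHF19 by −0.66 and CTSZ by −0.60, all lower in JJN3. KANSL2 itself fell further in JJN3 than in INA6, and its part in these differences was not tested.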

How the results depend on the processing

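Of the 6264 calls 4120 were kept, with their direction, under each of 10 alternatives: median centring, quantile normalisation, a replicate block, no trend and leaving out each of 6 libraries. None was reversed under any of these. Quantile normalisation lost most calls, 1285, and gave 5857 in all. Median centring gave 3768 higher and 2571 lower, and shifted the median difference by 0.03. Leaving out 1 library gave 5332 to 6078 calls, 2681 to 3089 higher and 2651 to 2989 lower. The treat method gave 1108, 516 and 592, since it asks for a difference beyond 0.2. Libraries of the same number showed no shared deviation: the same-number correlations of deviations were 0.00, −0.01 and 0.00. The fit with the block gave 6205 calls. These values do not show whether such libraries were prepared together. For the line difference the count stayed within 1.5 times under each alternative, from 2723 to 3825, including those that leave out an INA6 library and were chosen after seeing the data. Scaling checks of lists and of level and CpG groups were chosen then too. Quantile normalisation closed the gap between directions by level. The share of antisense transcripts, 33 higher and 71 lower of 295, became 53 and 52 under quantile normalisation. Without counts, the tables do not show which low genes rest on few reads.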

Other observations

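Several other groups were mostly called higher. Of 26 chaperonin and cytosolic chaperone genes 20 were higher and 1 lower (median 0.24), and 19 and 1 under quantile normalisation. Of 30 genes of replication licensing and origin firing, to which CDC6 belongs, 21 were higher and 2 lower (median 0.31), or 19 and 0. HNRNP genes, which package nascent RNA, had 14 higher and 1 lower of 22, or 9 and 1. Their median level was 11.3, in the band of 11 or more where 52.8% of all genes were higher. Cytosolic aminoacyl-tRNA synthetases, which charge transfer RNAs, had 10 higher and 1 lower of 16, or 7 and 1. Of 19 interferon-response genes 5 were higher and 8 lower, or 6 and 5 under median centring. IFI6 and ISG15, both induced by interferon, read 5.90, 6.00 and 5.89 and 8.10, 8.18 and 8.02 in the controls and 5.47, 5.47 and 5.51 and 7.58, 7.64 and 7.76 in the knockdown libraries. Of 34 genes of cholesterol and fatty acid synthesis 16 were higher and 5 lower, but 10 and 7 under quantile normalisation. INSIG1, a sensor that holds back this pathway, stood at 0.08 ± 0.039, not called, against −0.92 in INA6. Of 19 integrin genes 3 were higher and 8 lower. Of 18 nuclear lamina genes 9 were higher and 2 lower: LMNA, which encodes lamins A and C, rose from 11.69, 11.59 and 11.62 to 12.07, 12.14 and 12.13, and LEMD2, an inner membrane protein, fell from 9.63, 9.59 and 9.54 to 8.94, 8.88 and 9.14. IL4I1, a secreted amino acid oxidase, rose from 10.37, 10.17 and 10.26 to 10.75, 10.97 and 11.05 and stood at −0.09 in INA6. CD59, which blocks the end of the complement cascade, rose by 0.51 while C1R, at its start, fell.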
